A study of Mus musculus with 9 samples.

Results

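The ErbB receptor family was followed across 9 mammary tumours of BlgCre-NeuKI mice by RNA sequencing. Its members, Egfr, Erbb2, Erbb3 and Erbb4, were taken by gene symbol and made up 4 of the 18484 genes listed for each tumour. All 4 were measured, and all 4 passed the filter on low values (10 counts or more in 3 or more epithelial tumours), as did 14007 genes in all.

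In these mice a Cre recombinase under the Blg (beta-lactoglobulin) promoter acts mainly in luminal cells. It removes a stop cassette from NeuKI, an activated rat Neu allele placed in the endogenous Erbb2 locus, so that Neu is transcribed from the Erbb2 promoter. The mice carried both alleles as heterozygotes on a mixed FVB and C57Bl6 background and so had 1 functional mouse Erbb2 allele, whose state in the tumours is not analysed here. Among the 8 epithelial tumours, 5 were labelled high-amplified at the Erbb2/Neu locus and 3 not/low-amplified, on the basis of genomic PCR. The high-amplified tumours were all adenocarcinomas of no special type, AC(NST). The virgin mice gave MS1163.1, MS1163.2 and MS1213.1, and parous mice gave MS1155.3 and MS1218.2. All tumours with the not/low-amplified label were parous, with MS1210.1 and MS1349.1 metaplastic adenosquamous carcinomas (ASQC) and MS1166.1 an AC(NST). MS1156.1, from a parous mouse, was a sarcoma and had 1 sample only. For MS1213.1 and MS1218.2 a second PCR method (droplet digital) disagreed with this label. Exome sequencing matched the label in MS1213.1 but not in MS1218.2. By droplet digital PCR, MS1349.1 showed neither removal of the stop cassette nor amplification of the locus, so activation of NeuKI was not shown in it. For MS1155.3 the Neu value of that method varied widely and was left out by the authors. MS1163.1 and MS1163.2 carry the same mouse number. Normal gland and tumours without NeuKI are not analysed here, so there is no untreated reference level for any receptor.

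Libraries held 12501225 to 23912429 counts. Levels below are normalized counts, the counts divided by a median-of-ratios size factor for the library. Markers chosen for the tissue labels matched them in the main. The 14 luminal markers summed to between 58589 and 167913 normalized counts in the 8 epithelial tumours and to 1371 in the sarcoma. The 9 squamous markers summed to 3857 and 3181 in both ASQC tumours and to at most 291 elsewhere. MS1218.2 stood apart among the epithelial tumours in stromal transcripts, with summed fibroblast markers of 381602 against 29792 to 116305 in the other 7 and summed leukocyte markers of 57842 against 7389 to 19433. Skeletal muscle markers summed to 3219 in MS1163.2, 50915 in the sarcoma and at most 593 elsewhere. As these were bulk samples, fewer cells of a type and less RNA per cell cannot be told apart.

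ErbB receptors are single-pass receptor tyrosine kinases that act as dimers. Ligands of the EGF family bind Egfr, Erbb3 and Erbb4, while Erbb2 has no known soluble ligand and serves as the favoured partner of the others. Erbb3 has little kinase activity of its own and passes the signal to phosphatidylinositol 3-kinase, and in the mammary gland Egfr is known for ductal growth and Erbb4 for lobuloalveolar differentiation in pregnancy and lactation.

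The 4 genes are related in sequence, and the counts rest on reads placed uniquely with up to 3 mismatches. No stretch of 76 bases, the length of 1 read, in the annotated transcript of 1 receptor came within 3 mismatches of another receptor on either strand, the smallest number for any pair being 7. The rat Neu sequence was not used here, so how many Neu reads were counted as Erbb2 is not known.

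Erbb2, the locus that carries the oncogene, was the receptor whose levels followed the amplification label. The gene occupies chr11:98412470-98437716. MS1155.3 had 105019 normalized counts of Erbb2, MS1213.1 had 51764, MS1218.2 had 15261, MS1163.2 had 6689 and MS1163.1 had 5284. Of the not/low-amplified tumours, MS1210.1 had 2783, MS1349.1 had 1943 and MS1166.1 had 1532. Every high-amplified tumour thus stood above every not/low-amplified tumour, but the lowest of the former was only 1.90-fold above the highest of the latter, while within the high-amplified label Erbb2 spanned 19.9-fold. Of all genes tested, 7.55% had every high-amplified tumour above every not/low-amplified tumour.

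The mean level of Erbb2 was 36803 ± 42549 (SD, n = 5) in high-amplified tumours and 2086 ± 638 (SD, n = 3) in not/low-amplified tumours. The log2 fold change was 4.16 (standard error, SE, 1.13, unadjusted p = 0.00456, adjusted p = 0.0879, edgeR quasi-likelihood test). A gene was called when its adjusted p was under 0.05 and its fold change over 2, and Erbb2 was therefore not called. By this rule 0 of the 4 receptors were called, against 0.921% of all genes tested. Of the 4, 2 (Erbb2 and Erbb4) had an unadjusted p under 0.05, as did 22.8% of all genes. DESeq2 called both Erbb2 (adjusted p = 6.79e-05) and Erbb4 (adjusted p = 0.0366), and limma called neither. For limma the share of all genes called is not given, here or in the comparisons below. DESeq2 called 10.5% of all genes by amplification status. An exact permutation test on Erbb2 alone gave a two-sided p of 0.0357 over 56 splits, the smallest that this design allows being 0.0179.

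**Figure D1:**
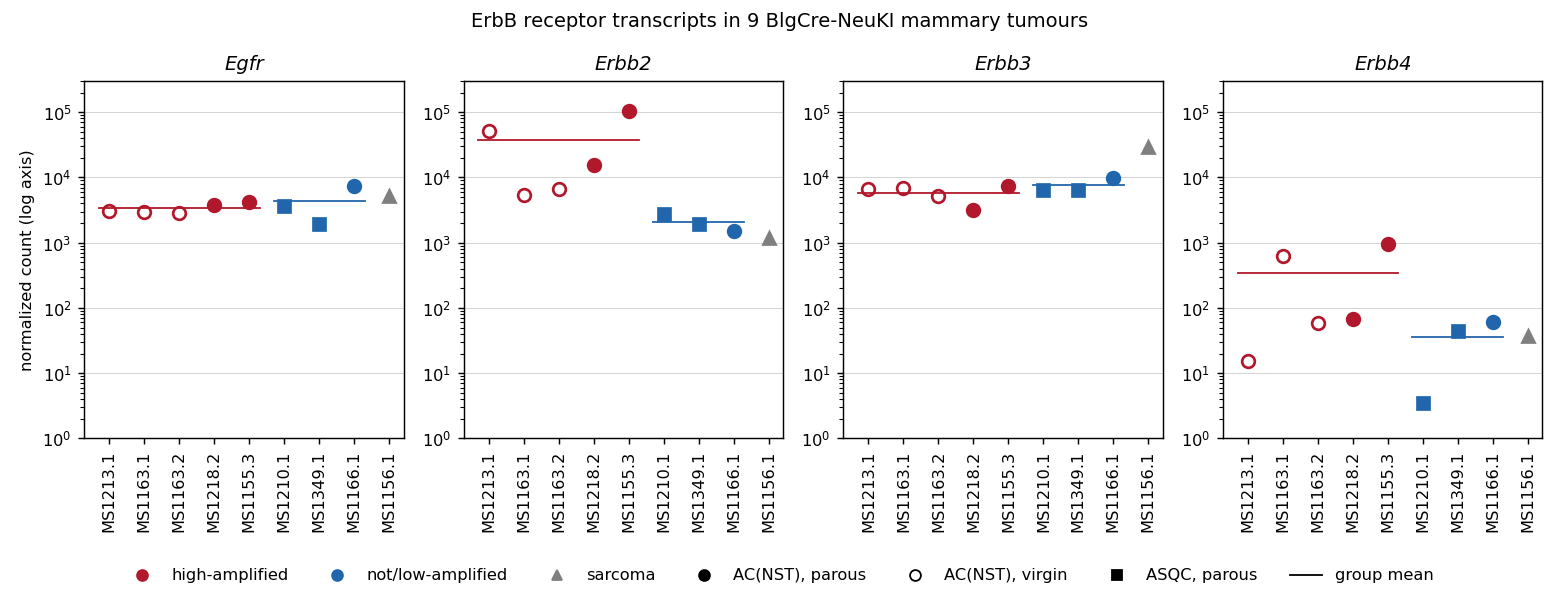
Normalized count of each receptor (log axis) in each of the 9 tumours, with colour for the amplification label, open symbols for virgin mice, squares for ASQC and lines for group means. Erbb2 alone separates the 5 high-amplified tumours (5284 and above) from the 3 not/low-amplified tumours (2783 and below), and Erbb3 is highest in the sarcoma.

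Erbb4, a receptor for neuregulins, varied most of the 4 among the epithelial tumours and was the lowest of them per kilobase in each. MS1155.3 had 945 normalized counts of Erbb4, MS1163.1 had 623, MS1218.2 had 68.5, MS1163.2 had 58.4 and MS1213.1 had 15.4. Of the not/low-amplified tumours, MS1166.1 had 60.7, MS1349.1 had 44.6 and MS1210.1 had 3.52, the last resting on 5 counts. The groups overlapped, since only MS1155.3 and MS1163.1 stood clearly apart and MS1213.1 lay below both MS1166.1 and MS1349.1. The span from the lowest to the highest tumour was 269-fold, and the log2 standard deviation over the 8 tumours exceeded that of 98.1% of the genes tested.

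For Erbb4, the log2 fold change of high-amplified over not/low-amplified tumours was 3.27 (SE 1.44, unadjusted p = 0.0471, adjusted p = 0.212, edgeR). The exact permutation test gave p = 0.196. A gap of like size lay within the high-amplified label. MS1163.1 and MS1163.2 share mouse number, parity, histotype and amplification label, and Erbb4 was 10.7-fold higher in the former. The other 3 receptors differed far less between these 2 tumours, with MS1163.1 at 1.03-fold of MS1163.2 for Egfr, 0.790-fold for Erbb2 and 1.33-fold for Erbb3.

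Egfr, the receptor for EGF, Tgfa and amphiregulin, did not separate the amplification groups. MS1155.3 had 4268 normalized counts of Egfr, MS1218.2 had 3795, MS1213.1 had 3058, MS1163.1 had 2915 and MS1163.2 had 2838. MS1166.1 had 7279, MS1210.1 had 3613 and MS1349.1 had 1956, so that the highest and the lowest epithelial tumours both carried the not/low-amplified label. The log2 fold change was -0.31 (SE 0.39, adjusted p = 0.652, edgeR) and the permutation p was 0.732 (exact). Among AC(NST) tumours alone, where MS1166.1 is the 1 not/low-amplified tumour, the log2 fold change was -1.13 with an adjusted p of 0.203. Without MS1166.1 the sign turned, to 0.28 (adjusted p = 0.718), and the direction for Egfr thus rested on that tumour. The antisense gene Egfros overlaps Egfr over part of its length, and the strand setting of the counting is not given in the sources used here, so reads of the pair cannot be told apart.

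Erbb3, the neuregulin receptor with impaired kinase activity, was the steadiest member in the epithelial tumours. MS1155.3 had 7438 normalized counts of Erbb3, MS1163.1 had 6876, MS1213.1 had 6579, MS1163.2 had 5151 and MS1218.2 had 3196. MS1166.1 had 9733, MS1210.1 had 6526 and MS1349.1 had 6356. The groups overlapped, and the lowest value was in MS1218.2, the tumour with the highest summed fibroblast and leukocyte markers, whose part in this value was not tested. The log2 fold change was -0.34 (SE 0.33, adjusted p = 0.563, edgeR) and the permutation p was 0.339 (exact). Its log2 standard deviation exceeded that of 27.6% of genes tested, against 38.3% for Egfr and 96.9% for Erbb2.

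Levels of different receptors were compared per kilobase of annotated exon. As the number of Neu reads counted as Erbb2 is not known, ranks and shares below hold for the counted reads only. Neu reads left uncounted would make the level and share of Erbb2 too low. Erbb2 ranked first in 4 of the 5 high-amplified tumours, at 20157 normalized counts per kilobase for MS1155.3, 9936 for MS1213.1, 2929 for MS1218.2 and 1284 for MS1163.2. In MS1163.1, Erbb3 (1143 per kilobase) ranked above Erbb2 (1014), a gap of 46.4% against 41.1% of the total of the 4 receptors. Erbb3 ranked first in all 3 not/low-amplified tumours, at 1618 per kilobase for MS1166.1, 1085 for MS1210.1 and 1057 for MS1349.1. Erbb4 was last in all 9 tumours, and in MS1166.1 Egfr (643 per kilobase) ranked above Erbb2 (294).

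Erbb2 made up 70.4 ± 22.2% (SD, n = 5) of the per-kilobase level of the 4 receptors in high-amplified tumours, from 41.1% to 92.3%. In not/low-amplified tumours it made up 20.8 ± 8.31% (SD, n = 3), from 11.5% to 27.6%, and the groups did not overlap (exact permutation test, two-sided p = 0.0357). Leaving out 1 tumour at a time gave a difference of 44.2 to 57.0 percentage points and p from 0.0286 to 0.0952. The p was 0.0571 without MS1213.1, MS1163.2, MS1218.2 or MS1155.3 and 0.0952 without MS1166.1. These repeats had 35 splits without a high-amplified tumour and 21 without a not/low-amplified tumour, against 56 with all tumours. Fewer splits raise the smallest p possible, and the groups did not overlap in any repeat. The remaining shares are complementary, since shares sum to 100, and their tests were added after the values were seen. Erbb3 made up 22.3 ± 17.8% (SD, n = 5) against 61.7 ± 5.10% (SD, n = 3), and Egfr 6.77 ± 4.36% against 17.4 ± 7.23%. Without Erbb2, the summed per-kilobase level of Egfr, Erbb3 and Erbb4 was 1298 ± 315 (SD, n = 5) in high-amplified and 1634 ± 553 (SD, n = 3) in not/low-amplified tumours (exact permutation p = 0.321).

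**Figure D2:**
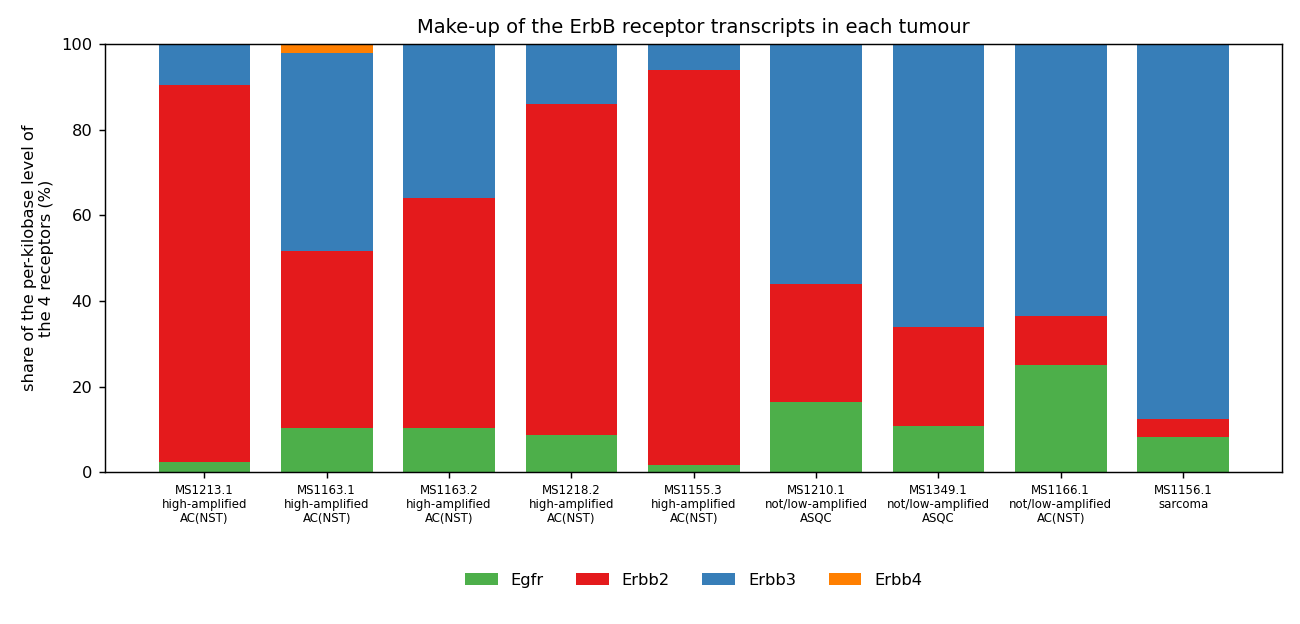
Share (%) of each receptor in the per-kilobase level of the 4 ErbB receptors, as stacked bars for each of the 9 tumours. Erbb2 fills 41.1% to 92.3% of the bar in high-amplified tumours and 11.5% to 27.6% in not/low-amplified tumours, where Erbb3 leads. How many Neu reads were counted as Erbb2 is not known.

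The histotype comparison set the 2 ASQC tumours against the 6 AC(NST) tumours, and as no ASQC was high-amplified it overlaps with the amplification label. Erbb2 averaged 2363 ± 594 (SD, n = 2) in ASQC and 30925 ± 40690 (SD, n = 6) in AC(NST), with a log2 fold change of -3.72 (SE 1.66, adjusted p = 0.572, edgeR). Within the not/low-amplified label the single AC(NST), MS1166.1 (1532), lay below both ASQC tumours. The log2 fold change there was 0.72, and 0.67 with amplification status as a covariate, and both values rest on that 1 tumour.

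Erbb4 averaged 24.0 ± 29.0 (SD, n = 2) in ASQC and 295 ± 393 (SD, n = 6) in AC(NST), a log2 fold change of -3.61 (SE 1.82, adjusted p = 0.612, edgeR). Egfr was 2784 ± 1172 in ASQC and 4025 ± 1690 in AC(NST), a log2 fold change of -0.52 (SE 0.45, adjusted p = 0.780). Erbb3 was nearly the same in both, at 6441 ± 120 and 6495 ± 2200, with a log2 fold change of -0.00 (SE 0.43, adjusted p = 0.998). No receptor was called (0 of 4, against 0.236% of all genes). Of the 4, 1 (Erbb2) had an unadjusted p under 0.05, as did 8.72% of all genes, and DESeq2 called Erbb2 (adjusted p = 0.0394) while limma called none. DESeq2 called 3.34% of all genes by histotype. The exact permutation p was 0.107 for Erbb4, 0.179 for Erbb2, 0.357 for Egfr and 0.964 for Erbb3, with 0.0357 the smallest possible.

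Parity was compared between 3 virgin and 5 parous tumours, and no virgin tumour was not/low-amplified. The virgin tumours were close together in Egfr (2937 ± 111, SD, n = 3) beside a wider parous group (4182 ± 1938, SD, n = 5), with a log2 fold change of -0.50 (SE 0.39, adjusted p = 0.550, edgeR). The 3 parous not/low-amplified tumours had both the highest and the lowest values. Within high-amplified tumours the virgin tumours (2838 to 3058) lay below both parous tumours (3795 and 4268). The share of all genes split in this way was not computed, and the virgin tumours MS1163.1 and MS1163.2 carry the same mouse number. Erbb2 was spread widely in both groups, from 5284 to 51764 in virgin and from 1532 to 105019 in parous tumours, with a log2 fold change of -0.24 (SE 1.45, adjusted p = 0.951). Erbb3 had a log2 fold change of -0.09 (SE 0.37, adjusted p = 0.924) and Erbb4 of 0.05 (SE 1.53, adjusted p = 0.991). No receptor was called by edgeR (0 of 4, against 0% of all genes), and none by limma. DESeq2 called neither Egfr nor Erbb3 and gave no p for Erbb2 and Erbb4, while it called 3.45% of all genes. None of the 4 had an unadjusted p under 0.05 in edgeR, against 14.2% of all genes. The standard errors for Erbb2 and Erbb4 leave changes of several fold in either direction undetectable with these tumours.

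**Figure D3:**
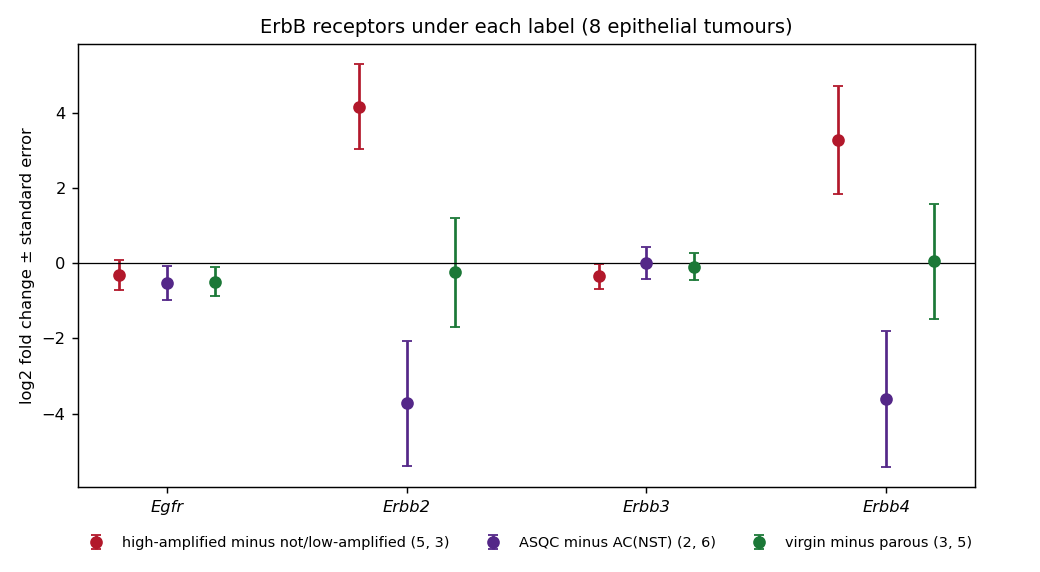
Log2 fold change of each receptor, with its standard error from edgeR, over the 8 epithelial tumours. Red shows high-amplified minus not/low-amplified, purple ASQC minus AC(NST) and green virgin minus parous. Erbb2 and Erbb4 have the widest error bars, with amplification values of 4.16 and 3.27 and histotype values of -3.72 and -3.61. The opposite signs reflect the order of subtraction, as both ASQC tumours were not/low-amplified.

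The sarcoma had more Erbb3 and less Erbb2 than any epithelial tumour. Erbb3 reached 29312 normalized counts, with an exact Poisson interval of 28913 to 29714 that covers counting error only, and was 3.01-fold above the highest epithelial tumour. It made up 87.5% of the per-kilobase level of the 4 receptors. Erbb2, at 1199, was below all 8 epithelial tumours, the lowest of which was 1.28-fold higher. Egfr, at 5259, lay above 7 of the 8, and Erbb4, at 36.9, above 2. Of the 14 luminal markers, 11 were lower in the sarcoma than in every epithelial tumour, among them Krt8 at 179 against at least 7841 and Epcam at 54.0 against at least 7106. The other 3, Esr1 (240), Pgr (145) and Foxa1 (19.9), lay within the epithelial range. With 1 sarcoma there is no test, and the share of all genes lying outside the epithelial range in it was not computed.

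Transcripts of the receptors' ligands were examined as the family's upstream partners. Of the 11 EGF-family ligands, 10 passed the filter. Of these, 1 was called between the amplification groups, against 0.921% of all genes tested. This was Nrg2, which encodes a ligand of Erbb3 and Erbb4. Nrg2 ranged from 283 to 656 normalized counts in high-amplified and from 8.04 to 26.2 in not/low-amplified tumours. Such a separation in this direction held for 7.55% of all genes tested. Nrg2 rose by a log2 fold change of 4.89 (SE 0.58, adjusted p = 0.0174, edgeR). The call on Nrg2 was lost in 4 alternatives with log2 fold changes of 3.95 to 4.61. These were the test without MS1210.1 (adjusted p = 0.0695), parity as a covariate (0.102), and the tests within AC(NST) (0.0853) and within parous tumours (0.263). No gene at all was called with the covariate or among parous tumours, and the AC(NST) test had 1 not/low-amplified tumour. Nrg1, the founding neuregulin, had a log2 fold change of 3.20 (SE 0.84, adjusted p = 0.0826). Nrg4, a ligand of Erbb4, had 2.99 (SE 1.24, adjusted p = 0.189), and Nrg3 was close to 0 in every tumour and was not tested.

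Among ligands of Egfr, Tgfa ranged from 420 to 1393 normalized counts in the epithelial tumours, with a log2 fold change of 0.51 (SE 0.40, adjusted p = 0.469, edgeR). Hbegf, which also binds Erbb4, had 0.52 (SE 0.27, adjusted p = 0.285), and Egf 1.75 (SE 0.84, adjusted p = 0.248). Areg (-0.40), Btc (-0.77), Ereg (-0.82) and Epgn (-1.02) had log2 fold changes below 0, with adjusted p from 0.294 to 0.805. In the sarcoma, where Erbb3 was highest, its ligands Nrg1 and Nrg2 were at 5.68 and 4.26. No ligand was called by histotype or by parity with edgeR. DESeq2 called Nrg2 as lower in ASQC, where it called 3.34% of all genes by histotype. By amplification status DESeq2 called Nrg1, Nrg2 and Nrg4 as higher, where it called 10.5% of all genes. The median log2 fold change by amplification status was 0.52 over the 10 ligands and 0.02 over all genes tested.

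**Figure D4:**
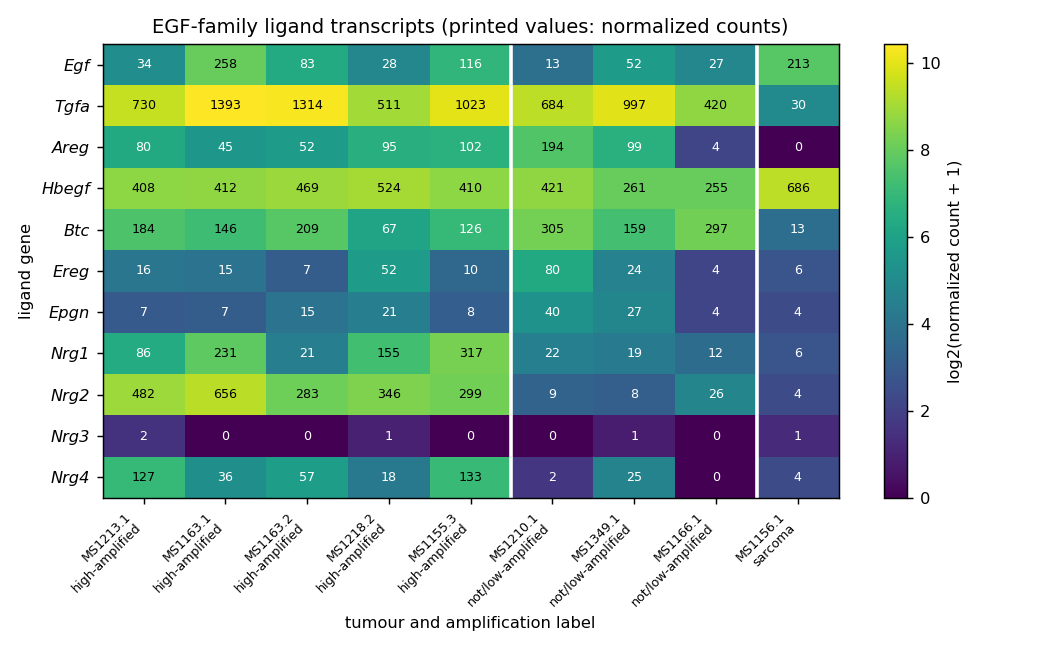
Level of 11 EGF-family ligands in each tumour as a heat map of log2(normalized count + 1), with the normalized count printed in each field and white lines between the amplification groups and the sarcoma. Nrg2 is the row that parts the 5 high-amplified tumours (283 and above) from the 3 not/low-amplified tumours (26.2 and below). Of all genes tested, 7.55% parted the groups in this direction.

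Of 29 adaptors and effectors that bind the receptors, 27 were tested by amplification status and 1 was called, against 0.921% of all genes tested. This was Grb7, an adaptor that binds phosphorylated Erbb2 and Erbb3 and whose gene neighbours Erbb2. By exome sequencing and droplet digital PCR, the paper found the Grb7 gene amplified along with Erbb2/Neu in tumours of this model. The part of copy number in the RNA level of Grb7 was not tested. Grb7 was 9395 ± 2690 (SD, n = 5) in high-amplified and 675 ± 279 (SD, n = 3) in not/low-amplified tumours, with a log2 fold change of 3.82 (SE 0.45, adjusted p = 0.0174, edgeR). Its call was lost in 5 alternatives with log2 fold changes of 3.45 to 4.22. These were the test without MS1210.1 (adjusted p = 0.0695), the sarcoma included (0.158), parity as a covariate (0.102), and the tests within AC(NST) (0.0893) and within parous tumours (0.237). DESeq2 called Grb7 and Shc4 as higher and Ptk6 and Tns4 as lower, where it called 10.5% of all genes. Grb7 did not follow the order of Erbb2 within the high-amplified group. It was highest in MS1163.1 (12343) and MS1163.2 (11600), which had the least Erbb2, and lower in MS1155.3 (6797) and MS1213.1 (6476), which had the most.

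All 12 stabilisers and scaffolds were tested. Of these, 4 had an unadjusted p under 0.05 (edgeR), all with lower levels in high-amplified tumours, against 22.8% of all genes. The edgeR test called 1 of them, Muc4, a membrane mucin that binds Erbb2, against 0.921% of all genes. The median log2 fold change of the 12 was -0.64, against 0.02 over all genes. Their summed level was 51489 to 56580 normalized counts in high-amplified and 88053 to 104393 in not/low-amplified tumours. A large part of this sum was Hsp90ab1, at 20379 ± 4253 (SD, n = 5) and 40032 ± 7563 (SD, n = 3). Erbb2ip, Dlg1, Flot1 and Flot2 had log2 fold changes above 0 (0.08 to 0.28), and the rest of the list below 0. DESeq2 called Hsp90aa1, Muc4 and Slc9a3r1 as lower, where it called 10.5% of all genes. Muc4 was 3218, 20154 and 663 in MS1210.1, MS1349.1 and MS1166.1 and 5.25 to 156 in the high-amplified tumours, and fell by 7.41 on the log2 scale (SE 1.32, adjusted p = 0.0390, edgeR). The call on Muc4 was lost in 6 of the 8 repeats without 1 tumour, those without MS1213.1, MS1163.1, MS1163.2, MS1155.3, MS1210.1 or MS1349.1, with adjusted p from 0.0593 to 0.0875. It was also lost with the tumours of the same mouse averaged (adjusted p = 0.0815), with parity as a covariate (0.202), among parous (0.383) and AC(NST) (0.155) tumours and with the sarcoma included (0.233). Without MS1349.1 the log2 fold change of Muc4 was -5.35, and among AC(NST) tumours it was -3.84. None of the 17 negative regulators (Lrig1, Errfi1, Cbl and others) or the 9 sheddases that release ligands was called by edgeR, with 4 and 0 of them at an unadjusted p under 0.05 (22.8% of all genes), and DESeq2 and limma called 0 of either list. Of the 75 genes of the 5 pathway lists that were tested, edgeR and limma called 0 by histotype and 0 by parity, with 11 and 8 at an unadjusted p under 0.05 in edgeR, where 8.72% and 14.2% of all genes had one. DESeq2 called 5 by histotype and 2 by parity, where it called 3.34% and 3.45% of all genes.

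The genes whose levels were most like each receptor were ranked by Pearson's r of log2(normalized count + 1) over the 8 epithelial tumours, among 14006 other genes. For Erbb2 they were Hivep3 (r = 0.98), Snx29 (0.96), Pcdhb22 (0.95), Vav2 (0.95) and Flt3l (0.95). For Erbb3 they were Rnaseh2b (0.97), Slc10a7 (0.97), Nupl1 (0.96), Zfp65 (0.96) and Zfp712 (0.96). For Egfr they were Wwp2 (0.94), Myg1 (0.93), Cers5 (0.93), Mgmt (0.93) and Sphk1 (0.93), and for Erbb4 Serhl (0.94), Pik3c2g (0.93), Wdr93 (0.93), Gm10083 (0.93) and Pabpc1l (0.92). No receptor appeared among the nearest genes of another. With 8 tumours and 14006 candidates the ranking was loose. By Spearman's rho, 2 of the 5 genes stayed among the nearest 5 for Egfr and 0 of 5 for Erbb2, Erbb3 and Erbb4.

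The endogenous Erbb2 promoter drives both the mouse gene and NeuKI, and is shown for that reason. The 250 bases before the annotated start of Erbb2 (RefSeq, GRCm38.p6, chr11:98412234-98412483, plus strand) read as follows, with capitals marking a match to AGGAAG, the letters of an Ets-type site.
Erbb2 promoter: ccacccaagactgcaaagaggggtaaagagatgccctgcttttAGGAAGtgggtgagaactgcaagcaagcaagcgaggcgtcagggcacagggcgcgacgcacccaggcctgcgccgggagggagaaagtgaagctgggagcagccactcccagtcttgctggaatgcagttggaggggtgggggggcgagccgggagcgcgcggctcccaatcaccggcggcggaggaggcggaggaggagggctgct
The end of this stretch runs past 98412470, where the gene begins in the annotation used for the gene position given above. The Erbb2 stretch held 66.0% G and C and 16 CpG dinucleotides, against medians of 52.4% and 6 over 32851 promoters of this length. AGGAAG, searched on both strands, matched 1 time in Erbb2, 1 time in Egfr on the other strand and not in Erbb4, and 29.5% of all promoters held it. GCCNNNGGC, an AP-2 type motif, was searched likewise and matched in none of the 3, with 13.7% of promoters holding it. Erbb3 had no entry. A match is a description of the letters only.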

How the data were processed

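Total RNA of 9 tumours was depleted of ribosomal RNA, made into strand-specific libraries and sequenced as paired reads of 76 bases. Per the labels and the study's methods, the authors aligned reads with STAR to mouse build 38, keeping unique reads, and counted them per gene with HTSeq-count, and the deposited counts are raw. For the 8 epithelial tumours the authors also deposited normalized counts (a signal scaled by DESeq2 size factors). FastQC and Cufflinks are named too, and versions and the strand setting of the counting are not given in the sources used here. The 4 receptors and all gene lists were chosen with earlier results of these data known.

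Counts were tested with edgeR 4.0.16 (R 4.3.3, TMM, quasi-likelihood) over the 14007 genes that reached 10 counts in 3 or more epithelial tumours, with Benjamini-Hochberg adjustment over all of them, and standard errors were derived from the F statistic. A call needed an adjusted p under 0.05 and a fold change over 2. DESeq2 1.42.0 and limma 3.58.1, on log2(normalized count + 1), were alternatives, as were other scalings and filters, covariates, subsets and leaving out each tumour. Single receptors were tested by exact permutation of log2(normalized count + 1). The sarcoma was scaled to the 8 tumours by its median ratio and entered no main test. Size factors recomputed from the counts equalled the deposited ones. Lengths and positions came from GENCODE M21 (GRCm38), which matched 18420 of the 18484 genes. The edgeR, DESeq2 and limma fits were checked on simulated counts, and the permutation test on a fully separated and a constant set of values. Dixon's criterion was not checked in this way. A comparison of coding sequence between the receptors is not reported here. The genes named were the receptors, the ligands, list genes that were called and the 5 genes nearest each receptor. Genes that only DESeq2 called, and Hsp90ab1, Erbb2ip, Dlg1, Flot1 and Flot2, were named after their values were seen. MS1163.1 and MS1163.2 carry the same mouse number but counted as separate tumours in the main tests. The exact permutation tests were not repeated with this pair averaged. Nothing says that the other tumours of 1 group are independent beyond their labels, so p-values refer only to the spread between these samples. Libraries held 12501225 to 23912429 counts, at which 3 counts equal 2.11 to 4.26 normalized counts.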

Additional observations from a re-analysis of the deposited data

Results flagged for a closer look

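In 3 of 12 groups of 5 or 6 tumours examined, 1 tumour stood far from the rest by Dixon's criterion on normalized counts. Chance meets this criterion in about 1 group in 20 only if the values are normally distributed, which was not checked. The criterion was not applied to log2 values, so 3 of 12 cannot be read as more than chance gives. The groups share tumours and are not independent. Egfr in MS1166.1 was 7279 normalized counts, the highest of the 6 AC(NST) tumours. Erbb2 in MS1155.3 was 105019, the highest of the 5 parous tumours, and Erbb4 in the same tumour was 945, again the highest of the 5.

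The sarcoma entered none of the main comparisons, and all 4 receptors were detected in it above the limit of 3 counts. Erbb3 stood at 29312, Egfr at 5259, Erbb2 at 1199 and Erbb4 at 36.9 normalized counts, the last from 26 counts.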

How the results depend on the processing

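No paired analysis was possible because no mouse number occurs in both groups of a comparison. The fold changes of Erbb2, Erbb3 and Erbb4 by amplification status kept their direction in all 20 alternatives each. Erbb2 ranged from 3.27 to 4.87 on the log2 scale with adjusted p from 6.79e-05 to 0.314, and Erbb4 from 2.43 to 3.84 with adjusted p from 0.0366 to 0.538. DESeq2 moved past the threshold Erbb2 (4.14) and Erbb4 (3.24) by amplification and Erbb2 by histotype (-3.71). The value of Erbb2 without its own counts in the scaling, a setting chosen after seeing the data, kept its direction and stayed uncalled. Egfr by amplification ranged from -0.65 to 0.28 without 1 tumour.

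By histotype, Erbb2 turned with amplification as a covariate (0.67) and among not/low-amplified tumours (0.72), where Erbb4 failed the filter and has no value. Erbb3 by histotype turned with limma (0.067) and ranged from -0.14 to 0.14 without 1 tumour. By parity, Erbb2 turned with limma (0.87) and with the same-mouse tumours averaged (0.20), and ranged from -2.10 to 1.99 without 1 tumour. Erbb3 turned with amplification as a covariate (0.22) and among high-amplified tumours (0.21), ranged from -0.26 to 0.074 without 1 tumour, and turned in the permutation difference on CPM values (0.11). Erbb4 turned to -0.28 with the same-mouse tumours averaged, -1.13 with the covariate and -1.13 among high-amplified tumours, and ranged from -2.62 to 2.40 without 1 tumour. The cause of these changes was not tested, except that covariates and subsets use fewer tumours or degrees of freedom.

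Genes called by amplification, 129 in the main test, numbered 1591 with DESeq2, 229 without a filter, 31 with same-mouse tumours averaged, 0 with the parity covariate, 0 among parous tumours, 40 among AC(NST) tumours, 3 with the sarcoma included and 1 to 1256 without 1 tumour (1 without MS1210.1 and 1256 without MS1218.2). By histotype, 33 became 518 with DESeq2, 14 with limma, 171 without a filter, 87 with a mean count of at least 50, 18 with same-mouse tumours averaged, 0 with the covariate, 0 among not/low-amplified tumours and 4 to 84 without 1 tumour. By parity, 0 became 511 with DESeq2 and 0 to 147 without 1 tumour. The difference in Erbb2 share was 44.2 to 57.0 percentage points without 1 tumour. By Spearman's rho, 2 of the 5 genes most like Egfr were kept, and 0 for Erbb2, 0 for Erbb3 and 0 for Erbb4. With 2 or 3 tumours in the smaller group, and 5 counts of Erbb4 in MS1210.1, differences of the size of the spread were not detectable.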
